A study of Homo sapiens with 2 samples.

Results

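Iron storage and handling was followed through 8 genes chosen by symbol, all of which were found among the 36601 genes of the feature tables: FTL, FTH1, TF, TFRC, CP, HAMP, HEPH and NCOA4. They were measured in 2 single-cell libraries of colon organoids. The organoids derive from 1383D6, a human iPS (induced pluripotent stem) line in established use. One library, CNT, came from untreated organoids, and the other, 3CK, from organoids given tumour necrosis factor α (TNF-α), interferon γ (IFN-γ) and interleukin 1β (IL-1β) together for 8 days. Both groups come from the same line and went through the same directed differentiation, with transferrin in a supplement of the early medium, and about 8300 cells per library were loaded. With 1 library per group there is no replicate, so no test of the treatment was possible, every difference below is between these 2 libraries, and every interval (95%) covers counting error only.

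Iron inside a cell is held in ferritin, a shell built from a heavy chain (FTH1), which oxidises the metal, and a light chain (FTL), which helps to form the mineral core. Transferrin (TF) carries iron in plasma and the transferrin receptor (TFRC) takes it up, while NCOA4 delivers ferritin to lysosomes so that its iron is released again. Ceruloplasmin (CP) and hephaestin (HEPH) are copper oxidases that convert iron for loading onto transferrin after export, and hepcidin (HAMP), a liver hormone, blocks the exporter ferroportin (SLC40A1). Inflammation is known to act on several of these genes, and iron itself acts on ferritin and TFRC after transcription, through iron-responsive elements (IREs), hairpins in their messengers.

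The hairpin was searched for in the untranslated regions of 1 reference transcript per gene (GENCODE annotation of GRCh38), because it sets apart the members that iron is known to control after transcription. The pattern was an unpaired C, a stem of 5 base pairs (G-T pairs allowed), the loop CAGTGN and the other side of the stem. FTH1 and FTL each held it in the 5′ untranslated region, FTH1 at chr11:61967574-61967602 on the minus strand and FTL at chr19:48965335-48965363 on the plus strand. Capitals mark the loop, and all sequences run 5′ to 3′:
FTH1: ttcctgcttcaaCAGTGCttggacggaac
FTL: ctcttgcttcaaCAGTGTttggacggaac
TFRC held 4 matches in its 3′ untranslated region on the minus strand, at chr3:196050979-196051007, chr3:196050575-196050603, chr3:196050510-196050538 and chr3:196050463-196050491, printed in that order:
TFRC 1: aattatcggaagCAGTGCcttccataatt
TFRC 2: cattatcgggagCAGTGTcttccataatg
TFRC 3: ctgtatcggagaCAGTGAtctccatatgt
TFRC 4: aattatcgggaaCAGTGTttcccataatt
The same pattern occurred in 19 of 18845 annotated 5′ untranslated regions (0.101%) and in 122 of 19496 3′ untranslated regions (0.626%), and it also matched once in the 3′ untranslated region of TF. A match is a description of the letters. UMI counts measure RNA abundance and carry no reading of whether ferritin messengers were translated.

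On GRCh38 the genes lie at chr19:48965309-48966879 (FTL, plus strand), chr11:61959718-61967634 (FTH1, minus), chr3:133746040-133796641 (TF, plus), chr3:196012511-196082153 (TFRC, minus), chr3:149162410-149221829 (CP, minus), chr19:35280716-35285143 (HAMP, plus), chrX:66162671-66268867 (HEPH, plus) and chr10:46005088-46030623 (NCOA4, minus). The annotation names 25 pseudogenes of FTH1 and 16 of FTL, 0 of which are in the feature tables, and how reads that fit both were counted is not given in the sources used here. FTH1 overlaps BEST1, and CP overlaps HPS3, on the opposite strand, and TF overlaps SRPRB on its own.

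The kept cells numbered 2487 in CNT, with a median of 28911 UMIs (unique molecular identifiers, 1 per captured transcript), and 1398 in 3CK, with a median of 62746. No barcode was shared by the libraries. Epithelial cells were those with at least 2 EPCAM UMIs per 10000, and they made up 1660 CNT cells (66.7%) and 1016 3CK cells (72.7%). Mesenchymal cells had at least 5 UMIs of COL1A1, COL1A2 and COL3A1 per 10000 and fewer than 1 of EPCAM, and they made up 574 (23.1%) and 124 (8.87%). The remaining 253 and 258 cells were in neither class. Both names come from these gates alone: the mesenchymal cells still carried KRT18 at 4930 and 6968 UMIs per 1000000 (CPM), and the epithelial cells carried liver-type transcripts, with 11 hepatic markers summing to 101740 CPM in CNT and 34883 in 3CK. Because collagen levels in the mesenchymal cells were themselves lower in 3CK (COL1A1 3010 CPM against 906), the class may hold different cells in the 2 libraries, and FTH1 and CP in that class are also given with gates on DCN or VIM. The epithelial class may also hold different cells, since 497 CNT and 49 3CK epithelial cells had at least 5 of these collagen UMIs per 10000. A setting without them left 1163 and 967 epithelial cells. Cells sat close to the gates. In the epithelial class 168 CNT and 150 3CK cells had 2 to under 4 EPCAM UMIs per 10000. In the mesenchymal class 53 and 38 cells had 5 to under 10 collagen UMIs per 10000.

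Among the 8 genes, CP stood far above the others in how much the libraries differed, FTH1 differed in opposite directions in the 2 cell classes, and in epithelial cells the log2 ratios of the other 6 lay between -0.54 (TF) and -0.03 (TFRC). In epithelial cells 7 of the 8 members were below CNT and 1, CP, was above it. Among the 7, TFRC had an interval that included 0. It came out above CNT with equal weight per cell and when scaled to ribosomal protein UMIs. The median log2 ratio of the members, 3CK over CNT, was -0.37. The 9786 genes that reached 10 CPM in CNT or 3CK had a median of 0.07, and 55.4% of them were above 0. Only CP passed a 2-fold difference there (1 of 8 members higher, 0 lower), beside 7.88% of all those genes that were at least 2-fold higher and 7.62% that were at least 2-fold lower. Over all kept cells 7 members reached 10 CPM, of which 1 was at least 2-fold higher and 0 were lower, against 6.43% and 7.34% of 10259 genes. In mesenchymal cells 4 members reached 10 CPM, and 0 passed 2-fold in either direction, against 4.8% and 9.59% of 10272 genes. Apart from CP, then, members of at least 10 CPM differed by less than 2-fold over all kept, epithelial and mesenchymal cells. In the cells of neither class, FTH1 had a log2 ratio of 1.11, HEPH of -1.27 and FTL of 0.41. The share of all genes past 2-fold was not taken there.

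**Figure D1:**
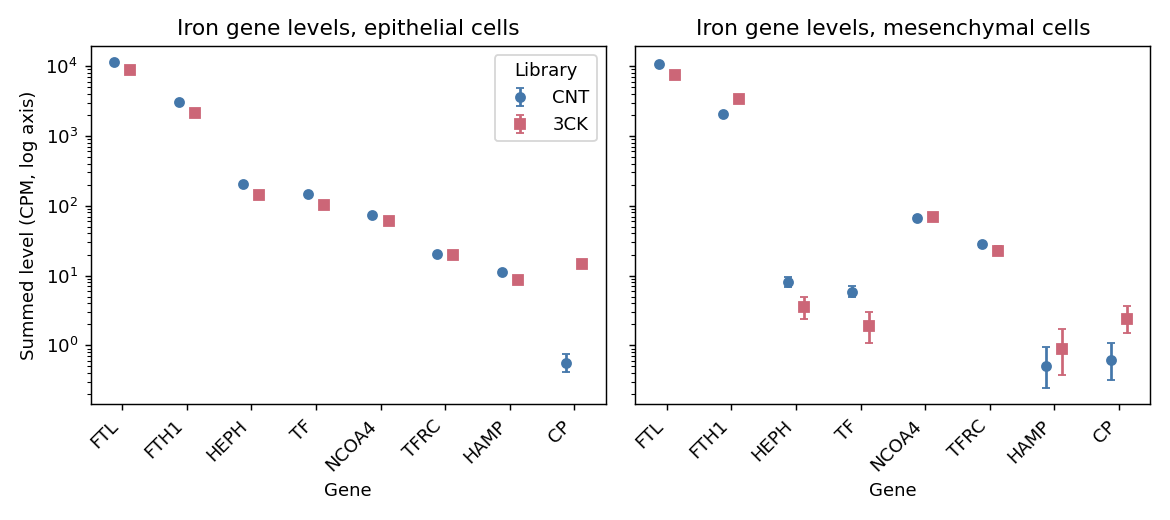
Summed level of each gene in UMIs per 1000000 (CPM, log axis) in epithelial (left) and mesenchymal (right) cells; circles are CNT, squares 3CK, and bars are exact 95% Poisson intervals (counting error only; hidden by the symbols where small). FTL and FTH1 are the highest in both classes, CP differs most between libraries in epithelial cells, and TF, HEPH and HAMP are much lower in mesenchymal cells.

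The ferritin chains were by far the most abundant members. Each UMI tags 1 transcript at its 3′ end, so these levels are compared between genes without scaling by length. FTL ranked 2 among all genes of the CNT library and 5 in 3CK. Together FTL and FTH1 made up 1.36% of all UMIs in CNT and 1.09% in 3CK. Other genes followed at a distance in epithelial cells, in the CNT order HEPH, TF, NCOA4, TFRC, HAMP and CP, and the interval of each level there did not overlap that of its neighbour.

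FTL, the light chain, was lower in the treated library in both classes. It stood at 11317 CPM (11293 to 11341) in CNT epithelial cells and 8915 (8893 to 8937) in 3CK, a log2 ratio of -0.34 (-0.35 to -0.34). The mesenchymal level stood at 10613 and 7487 CPM, a log2 ratio of -0.50 (-0.52 to -0.49). The spread between cells was wider than these shifts. Among epithelial cells of at least 10000 UMIs the quartiles of FTL were 6344 and 13912 CPM in CNT (median 9824) and 3539 and 12070 in 3CK (median 7296), so the libraries overlapped over most of their range. No single cell carried the total: the 3 cells with most FTL held 1.71% of the epithelial UMIs in CNT and 2.06% in 3CK.

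FTH1, the heavy chain with the iron-oxidising site, was lower in 3CK in one class and higher in the other. In epithelial cells its level was 3038 CPM (3026 to 3051) in CNT and 2118 (2108 to 2129) in 3CK, a log2 ratio of -0.52 (-0.53 to -0.51), or 1.43-fold lower. In mesenchymal cells it was 2053 CPM (2033 to 2073) in CNT and 3389 (3351 to 3427) in 3CK, a log2 ratio of 0.72 (0.70 to 0.74), or 1.65-fold higher. The difference between the 2 log2 ratios was 1.24 (1.22 to 1.27). The heavy chain was thus lower in mesenchymal than in epithelial cells in CNT (67.6% of the epithelial level) and higher in 3CK (160.0%). Cells in neither class stood on the mesenchymal side, with 1590 CPM in CNT and 3443 in 3CK, although 1 cell held 21.7% of the 3CK UMIs there.

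The mesenchymal difference was present in the median cell as well as in the sum. In mesenchymal cells of at least 10000 UMIs, the median FTH1 level was 1511 CPM in CNT (311 cells, quartiles 879 and 2471) and 2346 in 3CK (106 cells, quartiles 1534 and 3683). One 3CK cell held 3664 of the 30891 FTH1 UMIs (11.9%), and without the 3 cells with most FTH1 in each library the log2 ratio was 0.58. With the class gated on DCN in place of the collagens it was 0.43, and with VIM it was 0.81. FTL in the class was at -0.80 with DCN and -0.58 with VIM. Markers of 2 other cell states also differed between the libraries in this class. Cells with at least 1 UMI of PTPRC, TYROBP and FCER1G per 10000 made up 29 of 574 mesenchymal cells in CNT and 30 of 124 in 3CK. The same cut was passed by 150 of 1660 CNT and 118 of 1016 3CK epithelial cells, so passing it does not by itself identify a leukocyte. What the passing mesenchymal cells are was not tested. The 9 macrophage and leukocyte markers summed to 70.1 CPM and 212 CPM, 4 and 5 of them reaching 1 CPM. PTPRC, CD68, CD14, TYROBP and FCER1G were the 5 that reached it in CNT or 3CK. Of these, 4 were at least 2-fold higher in 3CK (median log2 ratio 1.78). Of 17353 genes at the same cut, 1049 were at least 2-fold higher (median -0.21). CD163, LYZ, CSF1R and C1QA stayed between 0.11 and 0.66 CPM in both libraries. Without the mesenchymal cells that passed the cut the FTH1 log2 ratio was 0.49. Cycling markers summed to 228 and 336 CPM, and without cycling cells the ratio was 0.82.

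**Figure D2:**
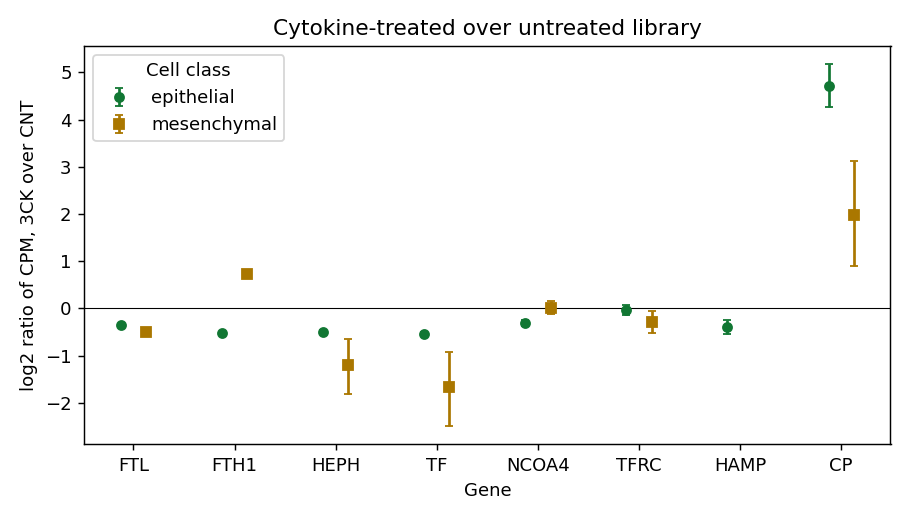
Log2 ratio of the level in 3CK over CNT (CPM) for each gene, in epithelial cells (circles) and mesenchymal cells (squares), with 95% counting intervals; HAMP is not drawn for mesenchymal cells, where it rests on 10 and 8 UMIs. FTH1 is at -0.52 in epithelial and 0.72 in mesenchymal cells, and CP at 4.70 and 1.98.

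The balance of ferritin transcripts within single cells followed the same split. The ratio of FTH1 to FTL UMIs was taken in each cell with at least 20 ferritin UMIs. This left out 551 of 1660 CNT and 209 of 1016 3CK epithelial cells. Among mesenchymal cells it left out 255 of 574 in CNT and 19 of 124 in 3CK. In epithelial cells the median log2 ratio was -1.97 in CNT (1109 cells) and -2.10 in 3CK (807 cells), which is 3.91 and 4.27 light-chain transcripts per heavy-chain transcript. In mesenchymal cells it was -2.28 in CNT (319 cells) and -1.14 in 3CK (105 cells), or 4.87 and 2.21 light-chain transcripts per heavy-chain transcript. With the class gated on DCN the medians were -2.36 and -1.12, and with VIM -2.28 and -1.08. FTH1 exceeded FTL in 10 of 319 CNT mesenchymal cells (3.13%, 1.51% to 5.69%) and in 24 of 105 3CK cells (22.9%, 15.2% to 32.1%). Among epithelial cells it did so in 3.52% (2.51% to 4.78%) and 2.48% (1.52% to 3.80%). The whole mesenchymal distribution was displaced, its lower quartile from -2.97 to -2.02 and its upper quartile from -1.66 to -0.05, while the epithelial quartiles were -2.69 and -2.78 at the lower end and -1.30 and -1.41 at the upper.

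**Figure D3:**
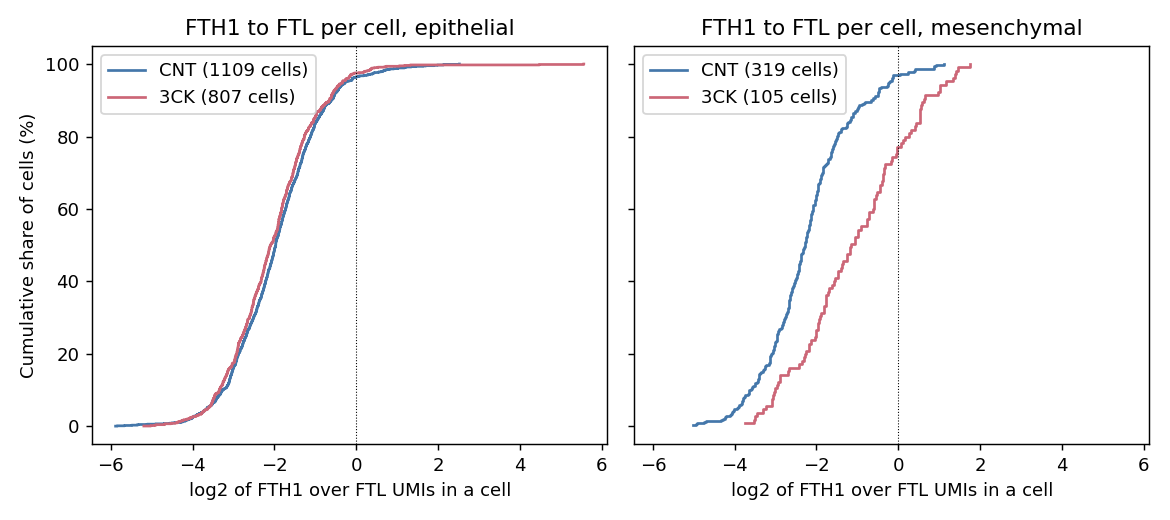
Cumulative share of cells (%) against the log2 ratio of FTH1 to FTL UMIs in each cell, for epithelial (left) and mesenchymal (right) cells with at least 20 ferritin UMIs; the dotted line marks equal counts of both chains. The epithelial curves lie close together, while the 3CK mesenchymal curve is shifted right, with 22.9% of cells beyond the line against 3.13% in CNT.

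Within epithelial cells the heavy chain differed most in the lowest of 3 TTR ranges. TTR, the plasma carrier transthyretin, was one of the most abundant transcripts of the CNT library. It was used to sort cells of at least 10000 UMIs into the ranges, because it was itself lower in 3CK. A range may therefore hold different cells in the 2 libraries. In cells with under 50 TTR UMIs per 10000, FTH1 stood at 4322 CPM in CNT (87 cells) and 1871 in 3CK (225 cells), a log2 ratio of -1.21. In the ranges of 50 to 500 and of at least 500 the ratios were -0.36 and -0.41. The CNT level was thus highest in the lowest TTR range, where 3 cells held 5563 of its 24952 FTH1 UMIs. FTL behaved differently: it was higher at higher TTR in both libraries, from 5977 to 12148 CPM in CNT and from 6126 to 12580 in 3CK, and its log2 ratio within the ranges was 0.04, -0.22 and 0.05. All 3 were smaller in size than the overall light-chain ratio of -0.34, and 535 CNT cells but 69 3CK cells were in the highest range. Across the ranges the median log2 ratio of FTH1 to FTL went from -1.12 to -2.02 in CNT and from -1.86 to -2.41 in 3CK.

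**Figure D4:**
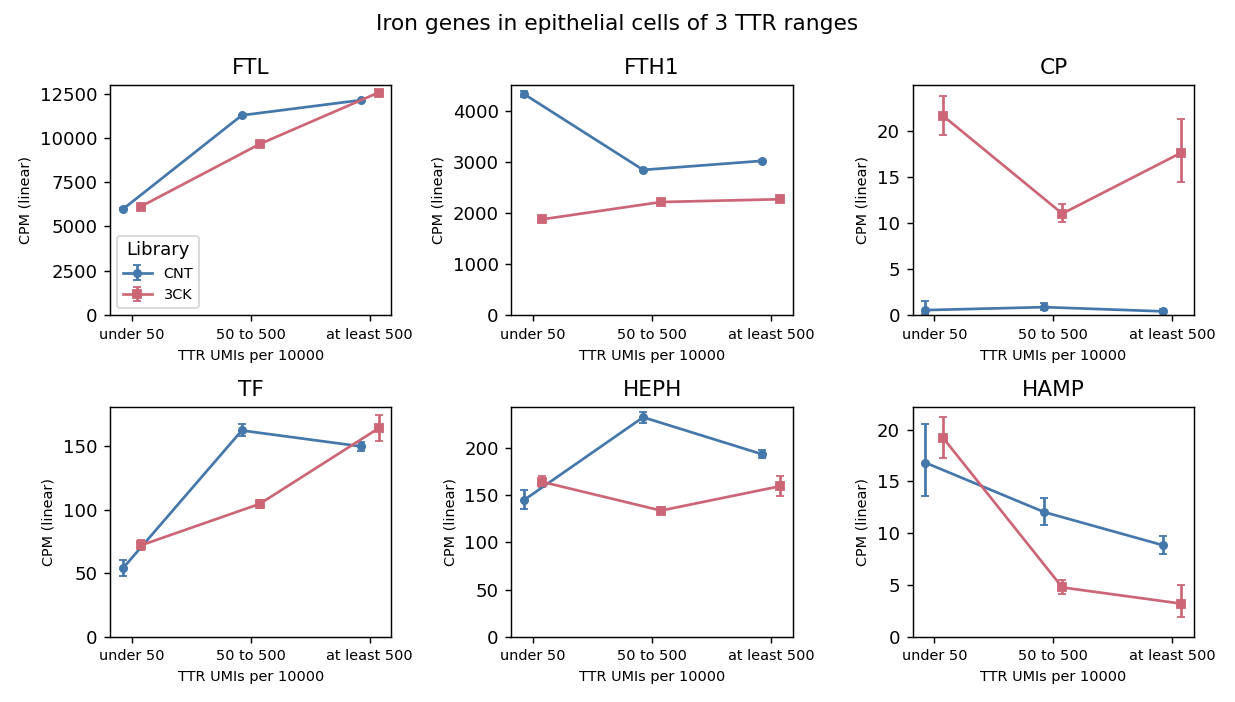
Level (CPM, linear axis from 0) of FTL, FTH1, CP, TF, HEPH and HAMP in epithelial cells of at least 10000 UMIs, split by TTR UMIs per 10000; circles are CNT (87, 391 and 535 cells), squares 3CK (225, 436 and 69 cells), with 95% Poisson intervals. FTH1 is lower in 3CK in every range and most so at low TTR, CP is higher in every range, and FTL is higher at higher TTR in both libraries.

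Ceruloplasmin was the member with the largest difference. CP, a secreted copper oxidase and a classical acute-phase protein, gave 43 UMIs in CNT epithelial cells and 1028 in 3CK. Its level was 0.565 CPM (0.409 to 0.760) against 14.7 (13.8 to 15.6), a log2 ratio of 4.70 (4.26 to 5.17), or 26.0-fold (19.1 to 36.1). The UMIs were spread over many cells: at least 1 was found in 30 of 1660 CNT cells (1.81%) and in 276 of 1016 3CK cells (27.2%), and the 3 cells with most CP held 9.14% of the 3CK total. At equal depth, with each cell thinned to 5000 UMIs and 598 CNT and 240 3CK cells too shallow to use, 3 of 1062 (0.282%) and 58 of 776 (7.47%) had a CP UMI. In mesenchymal cells CP gave 12 and 22 UMIs, 0.611 and 2.41 CPM, a log2 ratio of 1.98 (0.90 to 3.13), which differed from the epithelial one by -2.72 (-3.82 to -1.61). That mesenchymal ratio was 1.55 with the DCN gate and 3.47 with the VIM gate, and the latter is the highest of 15 other settings, which started at 1.45.

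CP was higher in every TTR range, with 0.520, 0.841 and 0.382 CPM in CNT and 21.6, 11.0 and 17.6 in 3CK from the lowest to the highest. It differed little with LCN2, which encodes an iron-scavenging acute-phase protein of epithelia: 3CK epithelial cells with at least 2 LCN2 UMIs per 10000 (204 cells) had 15.8 CPM of CP (14.1 to 17.6) and those with fewer (526 cells) had 13.9 (12.9 to 15.0). The 2 groups of cells did differ in FTH1, 2768 CPM against 1852. How the counting treated the strand of reads in the overlap of CP with HPS3 is not given in the sources used here.

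HEPH, the membrane oxidase of intestinal epithelium, and TF, the plasma carrier, had epithelial levels close to each other and similar differences. HEPH stood at 204 CPM (201 to 207) in CNT epithelial cells and 144 (141 to 147) in 3CK, a log2 ratio of -0.50 (-0.54 to -0.46). Its median over epithelial cells of at least 10000 UMIs was 192 CPM in CNT and 119 in 3CK. At equal depth 59.2% (56.2% to 62.2%) of CNT and 45.4% (41.8% to 48.9%) of 3CK epithelial cells had a HEPH UMI, while without thinning, in the deeper 3CK cells, the shares were 66.4% and 74.9%. Without thinning HEPH was thus detected in most epithelial cells of both libraries.

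TF stood at 148 CPM (145 to 150) in CNT epithelial cells and 102 (99.3 to 104) in 3CK, a log2 ratio of -0.54 (-0.58 to -0.50). It was concentrated in fewer cells than HEPH, with a median of 24.9 CPM in CNT and 12.1 in 3CK among cells of at least 10000 UMIs, and the 3 cells with most TF held 6.17% and 12.3% of its UMIs. Shares at equal depth were 30.2% (27.5% to 33.1%) and 25.5% (22.5% to 28.7%), and without thinning 47.3% and 48.6%. Neither gene had one direction across the TTR ranges: the log2 ratios from the lowest to the highest were 0.42, -0.64 and 0.13 for TF and 0.18, -0.80 and -0.28 for HEPH.

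In mesenchymal cells both genes were within the range of 3 liver-type transcripts, taken relative to epithelial cells. TF was at 4.00% of its epithelial level in CNT and 1.84% in 3CK, and HEPH at 3.96% and 2.43%, while ALB, AFP and TTR, made by hepatic cells, were at 2.17% to 4.16% in CNT and 1.22% to 2.91% in 3CK. With 116 and 17 UMIs of TF (log2 ratio -1.66) and 159 and 32 of HEPH (-1.20), these values were close to those of transcripts from another cell type and are not read as mesenchymal expression; free RNA in the droplets was not measured, and its part was not tested.

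TFRC, the receptor through which cells import transferrin-bound iron, hardly differed. It stood at 20.2 CPM (19.2 to 21.2) in CNT and 19.7 (18.7 to 20.8) in 3CK epithelial cells, a log2 ratio of -0.03 (-0.14 to 0.07). Mesenchymal cells had 27.9 CPM (25.6 to 30.3) and 22.8 (19.8 to 26.1), a log2 ratio of -0.29 (-0.53 to -0.06). TFRC was also the only member besides CP with a higher CNT level in mesenchymal than in epithelial cells. The counting interval of the epithelial fold ran from 0.908 to 1.05.

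NCOA4, the cargo receptor of ferritin breakdown, was at 74.7 CPM (72.8 to 76.7) in CNT and 60.4 (58.6 to 62.2) in 3CK epithelial cells, a log2 ratio of -0.31 (-0.36 to -0.25). The mesenchymal level was 67.4 and 68.3 CPM, a log2 ratio of 0.02 (-0.12 to 0.16). It was the most evenly spread member of moderate level, since the 3 cells with most NCOA4 held 1.16% and 1.61% of the epithelial UMIs. At equal depth 28.9% of CNT and 27.6% of 3CK epithelial cells, and 80 of 320 and 32 of 107 mesenchymal cells, had an NCOA4 UMI, with overlapping intervals. The epithelial intervals did not overlap at the other depths tried: 14.1% (12.2% to 16.2%) and 9.42% (7.55% to 11.6%) of cells thinned to 2000 UMIs, and 52.0% (48.9% to 55.1%) and 43.7% (40.1% to 47.4%) of cells thinned to 10000, had an NCOA4 UMI.

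HAMP, the hormone that inflammation raises in liver through interleukin 6 and STAT3, was held by very few cells. Its epithelial level was 11.2 CPM (10.4 to 12.0) in CNT, from 851 UMIs, and 8.54 (7.87 to 9.26) in 3CK, from 599 UMIs, a log2 ratio of -0.39 (-0.54 to -0.23). In 3CK 3 cells with 199, 140 and 118 UMIs held 76.3% of these, whereas the first 3 in CNT, with 106, 84 and 75, held 31.1%. Without the 3 highest cells of each library the log2 ratio was -1.92, so the summed value describes those cells more than the class. Any HAMP UMI was found in 123 of 1660 CNT cells (7.41%) and 72 of 1016 3CK cells (7.09%), and at equal depth in 33 of 1062 (3.11%) and 8 of 776 (1.03%). The intervals of these last shares, 2.15% to 4.34% and 0.446% to 2.02%, did not overlap. They did overlap for cells thinned to 2000 UMIs (1.39% to 3.14% and 0.480% to 1.98%) and to 10000 (3.09% to 5.68% and 1.90% to 4.53%). Since the result depended on the depth, the shares are not read as a change. A thinned cell with 1 UMI is also far above the mean level of HAMP, as it is for CP. Mesenchymal cells had 10 and 8 UMIs, found in 6 of 574 (1.05%) and 2 of 124 (1.61%) cells. At 5000 UMIs per cell 0 of 320 and 0 of 107 had one, which allows shares of cells with a UMI at that depth of up to 0.938% and 2.80%.

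The 3CK cells richest in HAMP were unlike each other. The first, at 2869 CPM of HAMP, also had 201 UMIs of CHGA, the chromogranin of endocrine cells, and 22 of NEUROD1, an endocrine transcription factor, while its TTR count was 86. The second, at 2135 CPM, had 0 UMIs of CHGA and 0 of MKI67, and 181 of TTR. The third, at 564 CPM, had 78 UMIs of MKI67 and 84 of TOP2A, both markers of cycling cells, and 3984 of TTR. In CNT the first cell had 2719 TTR UMIs and 0 of CHGA.

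The HAMP promoter is shown because interleukin 6 transcripts were higher in 3CK while summed HAMP was not. From the 250 bases upstream and 50 downstream of each start in RefSeq (GRCh38.p14; promoters of 6 of the 8 members matched, those of FTH1 and CP did not), the stretch chr19:35282375-35282503 on the plus strand reads as follows, with the letters matching the STAT-type motif TTCNNNGAA in capitals, from base -93 to base -85:
HAMP: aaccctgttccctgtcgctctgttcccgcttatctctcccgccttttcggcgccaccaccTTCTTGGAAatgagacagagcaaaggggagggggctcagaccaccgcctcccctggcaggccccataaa
Only the 250 bases upstream of each start were searched for motifs. TTCNNNGAA, which reads the same on both strands, was found in no other member promoter and in 6.57% of 35116 promoters. An NF-κB-type motif occurred in 9.96% of promoters and in no member promoter. TGANNNNGC, searched on both strands, occurred in 35.2% and, among the members, in HEPH. IL6 itself stood at 9.04 CPM in CNT and 103 in 3CK over all kept cells; it was 35.9 and 722 CPM in mesenchymal cells and 2.68 and 11.2 in epithelial cells, where most HAMP was counted. STAT3, the factor that interleukin 6 activates, was at 55.1 and 168 CPM in epithelial cells.

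Genes around the members were described through 11 lists. Each count covers genes that reached 1 CPM in CNT or 3CK over all kept cells, where 17523 genes had a median log2 ratio of -0.05 and 45.6% were above 0. Of all those genes 6.96% were at least 2-fold higher and 11.3% at least 2-fold lower in 3CK, the background for every list count that follows, and with lists this short nothing is read as particular to a list. The iron uptake list had 2 of 17 genes at least 2-fold higher and 3 lower (median -0.44). LCN2 led it upward, at 15.1 and 575 CPM. CUBN, the endocytic receptor cubilin, led it downward, at 104 and 7.52 CPM. The divalent metal transporter SLC11A2 was at 15.9 and 18.4 CPM and the second transferrin receptor TFR2 at 1.13 and 1.34. SLC39A14, a carrier of iron not bound to transferrin that inflammation is known to induce in liver, split by class as FTH1 did: 73.2 and 40.6 CPM in epithelial cells (log2 ratio -0.85, -0.92 to -0.78) and 36.5 and 86.1 in mesenchymal cells (1.24, 1.09 to 1.39).

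On the export side SLC40A1, the ferroportin on which hepcidin acts, was at 47.6 CPM in CNT and 33.7 in 3CK epithelial cells, a log2 ratio of -0.50 (-0.57 to -0.42). In mesenchymal cells it was at 23.2 and 34.7 CPM, a log2 ratio of 0.58 (0.37 to 0.79), which went to -0.30 without the 3 cells with most of its UMIs. APP, which has been linked to iron export, was at 187 and 236 CPM over all kept cells. The 2 measured export genes thus stood on either side of 0.

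The 8 measured genes of ferritin loading and turnover included 0 past 2-fold (median 0.10), from PCBP2, an iron chaperone of ferritin, at -0.39 to the autophagy gene ATG7 at 0.57; the autophagy receptor TAX1BP1 was at -0.02. Among 8 genes of iron sensing 0 passed 2-fold over all kept cells (median -0.15). ACO1, whose product is iron-regulatory protein 1 and binds the hairpins printed above, was at 32.6 and 13.6 CPM in epithelial cells (log2 ratio -1.26, -1.37 to -1.15) and 34.1 and 36.7 in mesenchymal cells (0.11, -0.09 to 0.30). IREB2, iron-regulatory protein 2, was at 38.6 and 34.9 CPM in epithelial cells (-0.14, -0.22 to -0.07) and 37.6 and 26.3 in mesenchymal cells (-0.51, -0.73 to -0.30). FBXL5, which marks iron-regulatory proteins for destruction when iron is plentiful, stood at 67.8 and 86.0 CPM in epithelial cells (0.34, 0.29 to 0.40) and 124 and 113 in mesenchymal cells (-0.14, -0.25 to -0.03), where its sign turned under 5 other settings. SKP1, of the same ligase, was at -0.42 over all kept cells.

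The hepcidin control list had 3 of 19 genes at least 2-fold higher and 3 lower (median -0.20), with IL6 at the top (log2 ratio 3.52) and TMPRSS6, a protease that restrains hepcidin, at the bottom (12.1 and 3.48 CPM, -1.79). ID1, a target of the BMP signal that drives hepcidin, was at 403 and 420 CPM. Heme synthesis had 0 of 8 genes past 2-fold (median 0.00), with ALAS1 at 0.58, UROS at 0.02 and ALAD lowest, at 15.7 and 7.87 CPM. Heme handling and breakdown had 0 higher and 4 of 12 lower (median -0.47). HMOX1, the inducible heme oxygenase that frees iron from heme, had a log2 ratio of 0.00 (-0.07 to 0.08); HMOX2 was at 0.56 and the heme exporter FLVCR1 at -1.61.

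Among mitochondrial iron and iron-sulfur genes 1 of 20 was at least 2-fold higher and 0 lower (median -0.06). That gene was SLC25A28, mitoferrin 2, at 12.0 and 35.0 CPM, and GLRX5, an iron-sulfur assembly factor, was lowest at 208 and 106. The ferroptosis list, whose genes do not all act in defence, had 0 of 11 past 2-fold (median 0.13). LPCAT3 was lowest at -0.87 and TXNRD1 highest at 0.92. GPX4, the enzyme that detoxifies lipid peroxides, was at 1041 and 582 CPM (-0.84). The 16 measured genes known to rise in the acute phase had 7 at least 2-fold higher and 4 lower (median -0.10), the highest being LCN2 and the lowest fibrinogen FGG (-1.41), with FGB at -1.13. Of the 8 measured genes known to fall, 0 were higher and 4 were at least 2-fold lower (median -1.26), from SERPINA6 at -2.16 and TTR at -1.68 to RBP4 at -0.33. TF, a member that is itself 1 of these 8 measured genes, was at -0.47 over all kept cells.

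**Figure D5:**
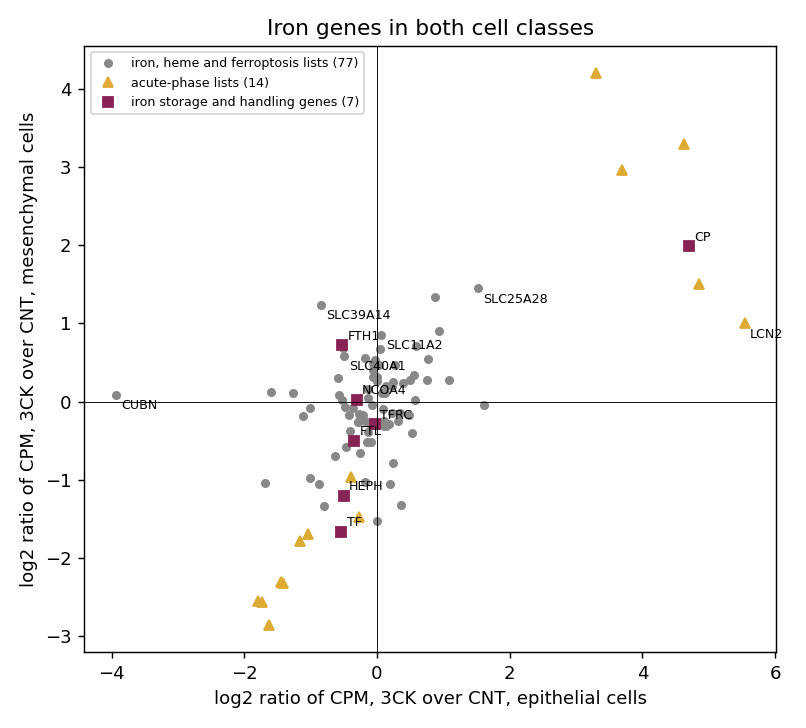
Log2 ratio of 3CK over CNT in epithelial cells (horizontal axis) and mesenchymal cells (vertical axis) for 77 genes of the iron, heme and ferroptosis lists (grey circles), 14 acute-phase genes (triangles; LCN2 is in both kinds of list) and 7 members (squares; HAMP left out), with listed genes drawn at a mean of at least 10 CPM in both classes. FTH1 and SLC39A14 lie in the upper left, lower in epithelial and higher in mesenchymal cells. CP lies at the upper right, where its mesenchymal value rests on 12 and 22 UMIs.

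Genes with the most similar pattern were looked for across epithelial cells of at least 10000 UMIs (1013 in CNT, 730 in 3CK) among 2747 genes of at least 50 CPM, by Pearson r of log2 values (UMIs per 10000, plus 1), as a description with no test; values in a cell share its depth and library. FTL was most like RPL28 (r 0.70 in CNT and 0.77 in 3CK), SERF2 and RPL29, and FTH1 most like RPL19 (0.65 and 0.70), RPS15 and RPL18. RPL and RPS genes encode ribosomal proteins, whose short and abundant messengers made up 15.9% of epithelial UMIs in CNT and 13.5% in 3CK. HEPH was most like PARM1 (0.54 and 0.52), HPN and the intestinal cadherin CDH17. TF was most like the apolipoproteins APOM (0.35 and 0.40) and APOC3 and then ALB, all secreted by hepatocytes. NCOA4 had no close partner, the first being ARCN1 (0.28 and 0.30), ATP1B1 and EIF4G2. Between members, FTL and FTH1 went together (0.59 and 0.73), while FTH1 and HEPH went in opposite directions (-0.23 and -0.47).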

How the data were processed

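Dissociated cells of untreated and cytokine-treated organoids were captured with 10x Genomics 3′ v3.1 chemistry, per the labels' protocols. The deposited values are raw UMI counts for each gene in each barcode, which the authors made with Cell Ranger 7.1.0 per the file headers and on GRCh38 per the submitters' processing notes; the annotation is not given in the sources used here. Total depth was 105314879 UMIs over 3257 barcodes in CNT and 94887438 over 1641 in 3CK.

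Barcodes with at least 500 genes and at most 20% mitochondrial UMIs were kept, and doublets scored by Scrublet (scanpy 1.11.5) were removed at 0.8% per 1000 barcodes (52 and 16). UMIs were summed per class and scaled to CPM by the total. Ratios are log2 of 3CK over CNT, with a floor of 3 UMIs (0.0295 and 0.0327 CPM over all kept cells). Intervals are exact Poisson for sums, exact binomial for ratios and Clopper-Pearson for shares. A share of 0 carries the limit of 3 counts instead. Only the ratios and their intervals were checked on simulated data. Those data were independent Poisson counts, the model the interval assumes, so the check does not cover spread between cells. The difference of 2 ratios carries an interval from a normal approximation on the counts. Per-cell FTH1 to FTL ratios add 0.5 UMI to both. Alternatives included TMM factors (edgeR 4.0.16), other filters and other gates.

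Named besides the members were, in each list, the gene with the highest mean CPM and those with the largest and smallest ratio, plus 10 genes named in every case; other genes (STAT3, HPS3 and class markers) were chosen after their values were seen. The members and lists were chosen with earlier results of these data known. TMM factors aside, no count model was used, since each group has 1 library.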

Additional observations from a re-analysis of the deposited data

Results flagged for a closer look

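Among the 8 members and the 10 genes named in every case, 4 had log2 ratios of opposite sign in the 2 cell classes with a counting interval that did not include 0 in either class; with 1 library per group these differences were not tested. FTH1 had a log2 ratio of 0.72 in mesenchymal and -0.52 in epithelial cells, SLC40A1 of 0.58 and -0.50, FBXL5 of -0.14 and 0.34, and SLC39A14 of 1.24 and -0.85. The FTH1 and SLC39A14 signs held in both classes under every setting tried, with FTH1 between 0.43 and 0.99 in mesenchymal and between -0.64 and -0.29 in epithelial cells, and SLC39A14 between 0.87 and 1.51 and between -0.97 and -0.54. SLC40A1 in mesenchymal cells went to -0.30 without the 3 cells with most of its UMIs. The 2 classes were unequal in size in 3CK, 124 mesenchymal against 1016 epithelial cells. Opposite signs were not rare. Among the 77 genes of the iron, heme and ferroptosis lists plotted for both classes, 30 had them. That count leaves out the members and the acute-phase genes and takes no account of the intervals. The median log2 ratio of all genes of at least 10 CPM was itself 0.07 in epithelial and -0.12 in mesenchymal cells. The share of all genes that meet the same rule was not taken, so the count of 4 is not read as particular to these genes.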

How the results depend on the processing

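Of 261 values under other settings for members whose reported interval did not include 0, 258 kept their sign and 3 did not, all over all kept cells when scaled to ribosomal protein UMIs (chosen after seeing the data): FTH1 0.0672, TFRC 0.14 and NCOA4 0.0107. Another 42 values belong to TFRC in epithelial and HAMP and NCOA4 in mesenchymal cells, whose intervals include 0, and 13 of them had the other sign. Ribosomal scaling moved the median log2 ratio of all genes to 0.26 over all kept cells, 0.30 in epithelial and 0.15 in mesenchymal cells, so relative to it no member other than CP was higher over all kept cells. The number of members above 0 went from 1 to 4 over all kept cells and from 1 to 2 in epithelial cells under it, and to 2 in epithelial cells with equal weight per cell. In mesenchymal cells it went from 4 to 2 with collagens of at least 20 per 10000, with VIM in place of the collagens, without cells with leukocyte markers and with equal weight per cell. The share of all genes above 0 is not given beside these counts, so they are not read as particular to the members. IREB2 in epithelial cells turned to 0.0867 with ribosomal scaling. FBXL5 in mesenchymal cells turned to 0.0104 with DCN, 0.0730 with VIM, 0.0385 with TMM factors, 0.10 with equal weight per cell and 0.13 with ribosomal scaling, and SLC40A1 to -0.30 without the 3 cells with most of its UMIs. The FTH1 to FTL ratio of CNT epithelial cells was -1.90 from summed UMIs against a median of -1.97. HAMP over all kept cells ran from -1.73 to -0.10. In each case the cause was not tested. CP stayed between 4.58 and 5.03 in epithelial cells. No paired analysis was possible because each group has 1 library, and no replicate could be left out. Depth limits HAMP, CP, TF and HEPH in the 124 mesenchymal 3CK cells, where each rests on 8 to 32 UMIs.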

Other observations

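Hemoglobin transcripts, which encode the main iron-bearing protein of red cells, were counted at low levels. HBB, the adult beta chain, gave 687 UMIs in CNT epithelial cells (9.02 CPM) and 65 in 3CK (0.93 CPM), and HBG1, a fetal chain, gave 37 and 0 UMIs in mesenchymal cells.

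One 3CK cell in neither class held 9460 FTH1 UMIs among its 140689 UMIs (67241 CPM), 4.24% of all FTH1 UMIs of the library, with 691 UMIs of VIM, 34 of CD68 and 0 of PTPRC. The mesenchymal 3CK cell with most FTH1 (3664 UMIs, 22064 CPM) had 380 UMIs of IL1B, 64 of TYROBP and 60 of CD68. The highest CNT cell had 2807 FTH1 UMIs (14579 CPM) and was epithelial.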
